A study of Bos taurus with 18 samples.

Results

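Isolated CpGs are the tested cytosines that have no other tested CpG within 100 bp on the same chromosome. By this rule, 204 of the 31500 CpGs measured by reduced representation bisulfite sequencing (RRBS) were isolated. They were compared with 26248 dense CpGs, which have 5 or more tested neighbours within 100 bp. The remaining 5048 CpGs have 1 to 4 neighbours. The rule uses positions only and no methylation value.

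DNA was taken from EBTr cells, a fibroblast line from the trachea of a bovine embryo, grown in Eagle's medium with fetal bovine serum, antibiotics and sodium pyruvate. There were 6 treatments with 3 libraries each. Low treatments had 1 g/L glucose and High treatments 4.5 g/L. Each glucose level was combined with 3 levels of epigenetic modifiers (EM), which are Control, ×2.5 and ×5. The EM are donors and cofactors of methyl group transfer, and Control medium held 0.001 g/L folate, 0.001 g/L choline, 4 µg/L vitamin B12 and 0.015 g/L methionine. The labels give the supplemented media 2.5 or 5 times these amounts of all EM, whereas the methods of the study give methionine a smaller and fixed factor. All 18 libraries come from this line, and the 3 tubes of a treatment are not stated to be separate cultures, so the p-values measure the spread between these tubes, which may be technical.

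A CpG is a cytosine followed by a guanine, and the cytosines of both strands of such a site can carry a methyl group that DNA methyltransferases place and maintain. Neighbouring CpGs in mammalian DNA tend to share their state, and CpG-dense islands at gene starts are mostly unmethylated while CpG-poor DNA is mostly methylated. RRBS cuts DNA at sites that hold a CpG and reads the ends of short fragments, so tested CpGs come in clusters. An isolated CpG in the table is isolated among tested positions, and untested CpGs may lie beside it.

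The deposited values are M-values, in which the methylated reads of a CpG are divided by the unmethylated reads on a log2 scale, and from which a methylation level in percent was computed. The depth behind each value is unknown, so no counting error is given. Of all tested positions, 12424 had their nearest tested position 1 bp away, which is the cytosine of the opposite strand of the same CpG. No isolated CpG has such a partner, since it would be a neighbour, and each isolated CpG therefore rests on 1 strand.

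The isolated CpGs lay on 27 of the 30 chromosomes of the table. Chromosome 8 held 23, chromosome 3 held 19, chromosome 4 held 15 and chromosome 27 held 13. For 133 isolated CpGs the nearest tested CpG was up to 200 bp away, and for 40 it was over 200 and up to 500 bp away. There was no tested CpG within 1000 bp of 26 isolated CpGs, and none within 10000 bp of 15. The median isolated CpG had 7 tested CpGs within 1000 bp, against 22 for the median dense CpG.

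A gene could be given to 131 isolated CpGs from the tables of the study, which name the closest start site at any distance. Only 21 of these CpGs are listed there themselves, and the others lie between listed CpGs of the same gene. The 131 CpGs were given 59 genes, of which 57 were found in the RefSeq gene table and 52 on the same chromosome. TLE4, a transcriptional corepressor, was given to 10 isolated CpGs on chromosome 8 with levels of 39.3% to 71.4% (median 41.9%). ALG6, an enzyme of protein N-glycosylation, was given to 8 on chromosome 3 with levels of 35.6% to 78.5% (median 43.7%). TTI2 was given to 6 on chromosome 27 (37.3% to 85.9%), and GALNT17 to 5 on chromosome 25 (31.8% to 71.1%). These names were chosen after the counts were seen. Whether a CpG lies in an exon, an intron or a promoter was not analysed here, as no annotation of the build was used.

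The isolated CpGs were less methylated than the dense CpGs and mostly at an intermediate level. Averaged over the 18 libraries, the median level was 42.6% for isolated CpGs and 76.6% for dense CpGs. The isolated CpGs ranged from 1.52% to 92.7%, with the 10th percentile at 24.6% and the 90th at 80.6%. Levels from 20% to under 60% were found for 140 isolated CpGs (68.6%), against 23.3% of dense CpGs. The single band from 40% to under 50% held 67 isolated CpGs (32.8%) and 7.39% of dense CpGs. At 80% and over, there were 23 isolated CpGs (11.3%) and 42.8% of dense CpGs. Levels under 20% were found for 13 isolated CpGs (6.37%) and for 2.80% of dense CpGs.

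**Figure D1:**
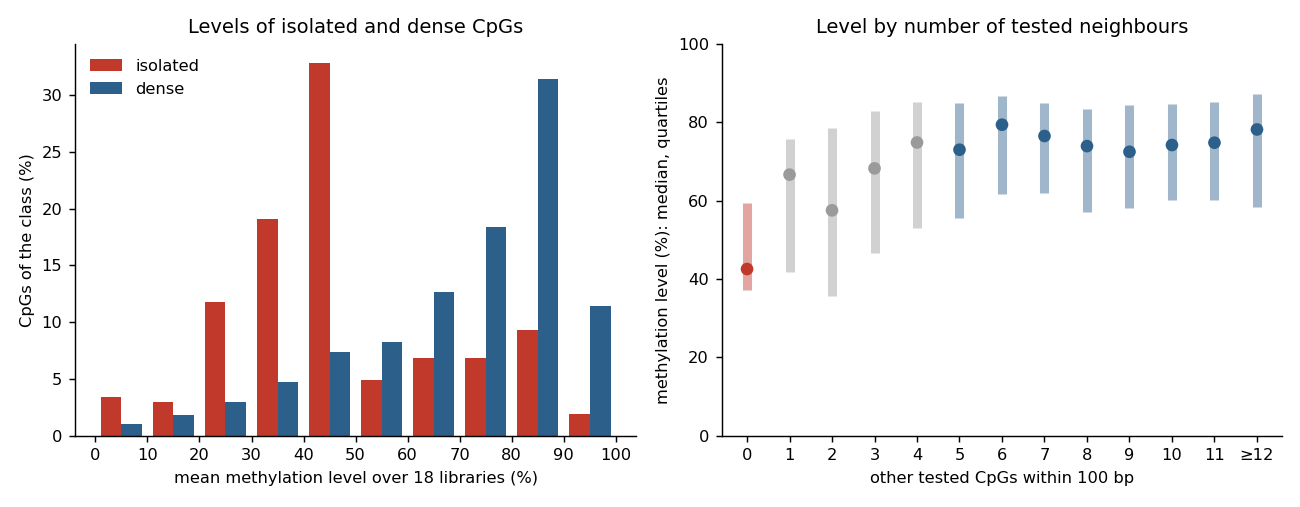
Left, share of isolated (red) and dense (blue) CpGs in bands of 10 percentage points of the mean level over 18 libraries. Right, median level (points) and quartiles (bars) by the number of other tested CpGs within 100 bp, where the median was 42.6% with none and 66.7% with 1, and 73.0% with 5.

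The level did not climb evenly with the number of neighbours. The median was 42.6% with no neighbour, 66.7% with 1, 57.5% with 2, 68.3% with 3 and 74.9% with 4. From 5 neighbours on, the medians lay between 72.5% and 79.4%. At the limit of the rule, the 11 isolated CpGs whose nearest tested CpG was up to 110 bp away had a median level of 71.4%, and the 12 CpGs just outside the rule, with the nearest at 91 to 100 bp, had a median of 63.1%. The 5 isolated CpGs with the nearest over 500 and up to 1000 bp away had a median of 65.1%, the 11 up to 10000 bp away a median of 73.9%, and the 15 farther away a median of 39.1%.

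The difference in level was tested over libraries, each of which gives both values. The mean level of isolated CpGs was 46.1% in the lowest library, 47.2% in the median library and 47.9% in the highest. For dense CpGs the lowest, median and highest libraries were at 68.4%, 70.4% and 71.3%, so the ranges were far apart. Isolated CpGs were 23.0 percentage points lower than dense CpGs on average, with an SD of 0.755 over the 18 libraries. The difference ran from -24.2 to -20.9 points, and it was below 0 in 18 of 18 libraries (sign-flip permutation test, two-sided, p = 2e-05, the smallest the resamples gave). This test speaks of libraries of these cells and not of CpGs of the genome.

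Isolated CpGs were also lower than the tested CpGs nearest to them beyond the limit. Tested CpGs over 100 and up to 1000 bp away, here called the flank, were found for 178 isolated CpGs (26 had none), with a median of 9 flank CpGs each. The mean level was 46.1% for these isolated CpGs and 63.3% for their flanks. In single libraries the difference ran from -18.5 to -15.2 points with a mean of -17.3 (SD 0.744, negative in 18 of 18 libraries, sign-flip permutation test, p = 2e-05). With a limit of 200 bp in place of 100 bp it was -10.4 points. Of the 178 isolated CpGs, 139 were lower and 39 were higher than their flank, 107 were over 20 points lower and 17 over 20 points higher. The single differences ran from -74.0 to 65.5 points (median -24.2). Across the 178 CpGs, Pearson's r between the level of the isolated CpG and that of its flank was 0.0449, a description over CpGs that share all 18 libraries.

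**Figure D2:**
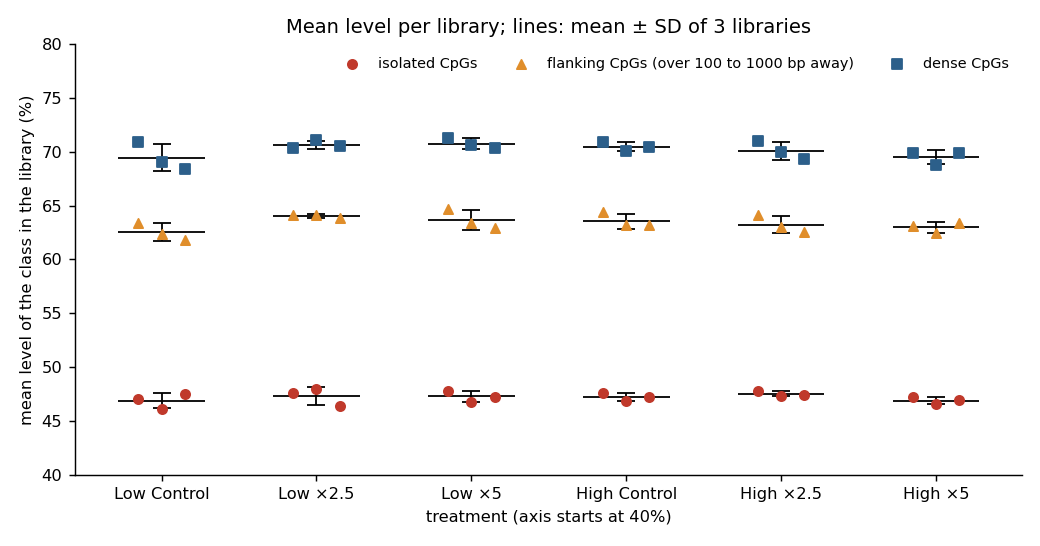
Mean level of all 204 isolated CpGs (circles), of the flanks of 178 of them (triangles) and of the dense CpGs (squares) in each of 18 libraries by treatment, with the mean and SD of 3 libraries as black lines. The isolated means sit between 46.1% and 47.9%, the flank means between 61.8% and 64.7% and the dense means between 68.4% and 71.3%, and the vertical axis starts at 40%.

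Many isolated CpGs shared exact distances to their nearest tested CpG. The classes of shared distances and of the loci built from them were formed after the positions and levels had been seen, and they are described without a test. In 63 of the 204 isolated CpGs, on 21 chromosomes, the nearest tested CpG was exactly 139 bp away. No other distance from 129 to 149 bp was shared by more than 7 isolated CpGs. Among all neighbouring tested positions, 75 gaps were 139 bp long, against a median of 3.5 and a highest count of 22 for the other lengths from 129 to 149 bp. The isolated CpGs at 139 bp had a median level of 41.0% (quartiles 38.7% and 43.4%), and the CpGs at the other end of the gap had a median of 78.0%.

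In all, 8 distances were shared by 5 or more isolated CpGs each, and these held 110 of the 204. A distance of 279 bp was shared by 11 isolated CpGs on 4 chromosomes, with levels of 30.9% to 49.9% on the isolated side and 35.3% to 44.5% on the other. A distance of 132 bp was shared by 7 with a median of 42.9%, and 403 bp by 7 with a median of 29.98%. The 5 isolated CpGs with the nearest at 109 bp were the reverse, at 71.1% to 78.4% on the isolated side and 25.6% to 33.1% on the other.

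The gap of 139 bp belonged to a longer recurring spacing. Measured from the isolated CpG toward its partner, tested positions lay at 165, 169, 209, 234, 245 and 256 bp in 54 to 57 of the 63 cases, while no other distance up to 400 bp was found in more than 13. All places of the table with at least 5 of these 6 distances tested were then collected in both directions. There were 210 such loci on 27 chromosomes, in 187 groups over 300 bp apart, and 121 of them had all 6 distances. They hold 2389 tested positions, 7.58% of the table. The starting point, called position 0, was tested at 144 loci. It was isolated at 66 of these, on 21 chromosomes, and had neighbours at 78. Thus 32.4% of all isolated CpGs sat at position 0, compared with 12 dense CpGs (0.0457%) and 0.457% of all tested CpGs. The distances were taken from the 63 isolated CpGs, and 53 of these are among the 66. The higher share of isolated CpGs is therefore partly built into the definition of position 0, and no conclusion is drawn from it.

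At the 66 loci with an isolated position 0, the median level at position 0 was 41.7%, and the SD between the mean levels of these loci was 5.70 points. The median was 78.1% at 139 bp, 87.5% at 165 bp, 88.5% at 169 bp, 39.3% at 209 bp, 78.7% at 234 bp, 66.5% at 245 bp and 87.3% at 256 bp. Medians along the spacing thus went from low to high, down at 209 bp and up again. Where position 0 had neighbours, with a median of 3 and up to 39, its median level was 42.8%, with an SD between loci of 12.9 points and a range of 5.45% to 97.2%. At the loci whose position 0 was not tested, the SD between loci was 16.1 to 23.0 points over the 7 other distances, against 2.17 to 6.07 points at the loci with an isolated position 0. Levels from 30% to under 50% were found for 61 of the 66 isolated CpGs and for 66 of the 78 with neighbours.

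**Figure D3:**
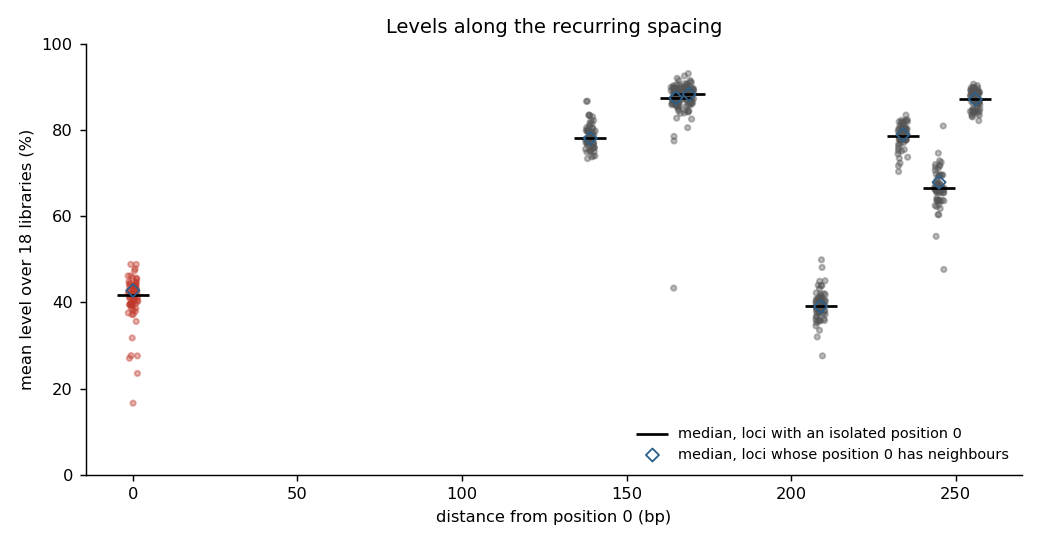
Mean level over 18 libraries against the distance from position 0 at the 66 loci whose position 0 is isolated (red, position 0; grey, the other distances; a small sideways shift separates points), with medians as black lines. Open diamonds give the medians of the loci whose position 0 has neighbours, which lie within 1.39 percentage points of the black lines at every distance.

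Isolated CpGs away from position 0 were also lower than dense CpGs, by a smaller margin. Of the 67 isolated CpGs from 40% to under 50%, 44 were at position 0. The 138 isolated CpGs elsewhere had a mean level of 50.3%, a median of 45.3% and an SD between CpGs of 24.2 points, and 75 of them (54.3%) were from 20% to under 60%. These 138 still include isolated CpGs at the shared distances described above, so they are not free of recurring spacings. Without the position 0 CpGs, the difference from dense CpGs was -19.8 points and the difference from the flank was -8.52 points (both sign-flip permutation p = 2e-05). The sequence of these loci was not analysed here, as no genome of the build was used. Across treatments, the isolated position 0 CpGs were at 39.9%, 38.4% and 41.7% in the Low Control libraries and at 41.2%, 40.2% and 41.7% in High ×2.5, the treatments with the lowest and the highest mean.

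In 15 cases a pair of isolated CpGs were each other's nearest tested CpG. Their levels differed by 6.11 to 66.2 points, with a median of 20.6. The largest difference was found on chromosome 17, where the CpG at position 37123354 was at 90.7% and the CpG at position 37123483, which is 129 bp away, was at 24.4%. The next largest, on chromosome 6, was also between CpGs 129 bp apart, at 88.7% (position 89206695) and 28.5% (position 89206824). Of the 15 pairs, 3 were 403 bp apart, with differences of 6.11, 16.3 and 20.6 points.

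The CpG at position 69796724 of chromosome 3 had the highest mean M-value (3.67 on the log2 scale), with levels of 91.3% to 94.4% over the 18 libraries (median 92.6%). It was followed by position 26590124 of chromosome 15 at 91.5%, given to CADM1, a cell adhesion molecule, and by position 73826022 of chromosome 2 at 91.0%. At the low end, position 5359332 of chromosome 13 had levels of 0.662% to 3.80% (median 1.21%), although its nearest tested CpG, 139 bp away at position 5359193 and isolated too, was at 32.9%. Position 72056078 of chromosome 9 was at 3.76% and position 92088205 of chromosome 10 at 4.61%. None of these 6 CpGs was at position 0 of the recurring spacing.

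The spread between replicate libraries was close in both classes over all levels. The pooled replicate SD of the M-value had a median of 0.42 on the log2 scale for isolated and for dense CpGs. On the scale of levels, the median SD was 5.68 points for isolated and 4.49 points for dense CpGs, which lie nearer to 100% where a log2 difference is worth fewer points. The mean absolute deviation from the treatment mean was 0.285 (log2) for isolated and 0.281 for dense CpGs. The difference of 0.00333 (SD 0.0163, n = 18 libraries, higher for isolated CpGs in 10) did not pass the test (sign-flip permutation test, p = 0.397). The sign and the call changed with the settings. With the same permutation test, it was 0.0129 against CpGs with 10 or more neighbours (p = 0.00436) and -0.0131 with a limit of 200 bp (p = 0.0334). Without replicates 1, 2 and 3 in turn it was 0.0141, -0.000575 and -0.00439. With 2 libraries left per treatment, both deviate from their mean by the same amount, so no p-value is given for these. Deviations of 3 libraries from their own mean are not independent either, so the other p-values of the spread may be too small.

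Among CpGs of like level, the isolated CpGs were somewhat more variable on average, most clearly from 40% to under 60%. Averaged within bands of 20 points, the deviation was larger by 0.0245 (log2, SD 0.0143) for isolated CpGs, and it was larger in 18 of 18 libraries (sign-flip permutation test, p = 2e-05). As above, deviations within a treatment are not independent, so the p-values of this difference may be too small. With a limit of 200 bp in place of 100 bp, which leaves 71 isolated CpGs, the difference was 0.000774 (permutation p = 0.887). Without the position 0 CpGs it was 0.0170 (permutation p = 0.00068). Without replicate 3 of every treatment it was 0.0145, with no p-value for the reason given above. In the band from 40% to under 60%, which holds 77 isolated CpGs, the deviation was 0.284 for isolated and 0.236 for dense CpGs, and the isolated CpGs were higher in 18 of 18 libraries. From 20% to under 40% (63 isolated CpGs) the difference was 0.00635, higher in 11 of 18. From 60% to under 80% (28 isolated CpGs) it was -0.0130, higher in 5 of 18. Under 20% (13 isolated CpGs) the difference was 0.0286, higher in 12 of 18. At 80% and over (23 isolated CpGs) it was 0.0401, higher in 13 of 18. The bands do not hold the number of reads constant, which is unknown.

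**Figure D4:**
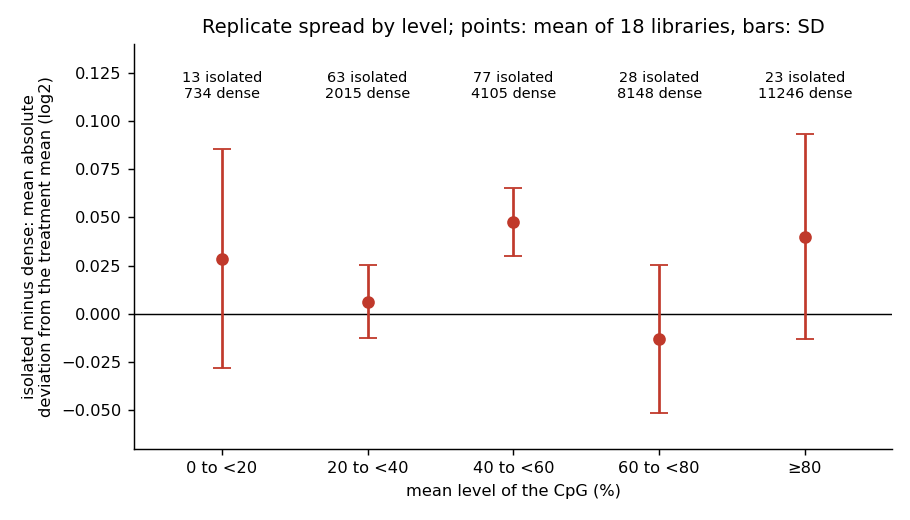
Difference in mean absolute deviation from the treatment mean (log2), isolated minus dense CpGs, in 5 bands of mean level. Points are means and bars SDs over 18 libraries, and only the band from 40% to under 60%, at 0.0476 ± 0.0177, has a bar clear of 0.

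Single isolated CpGs differed widely in spread. The largest replicate SD of the M-value was 0.84 at position 7286041 of chromosome 29, given to CTSC, a lysosomal protease, with levels of 12.2%, 56.2% and 19.05% in the Low Control libraries and 29.7%, 33.3% and 31.7% in the High Control libraries. The next were position 37932419 of chromosome 22 (0.79), given to SNTN, and position 89206695 of chromosome 6 (0.78), given to ADAMTS3, a metalloprotease. The smallest SD was 0.07 at position 85603925 of chromosome 3, with levels of 38.0% to 41.8% over all 18 libraries. It was followed by position 19409808 of chromosome 29 (0.08), given to the kinase PAK1, and by position 71265397 of chromosome 20 (0.09), whose nearest tested CpG was 771433 bp away.

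No treatment effect on the mean level of isolated CpGs passed the test. It was 46.9% ± 0.689 (SD, n = 3) in Low Control, 47.3% ± 0.834 in Low ×2.5, 47.3% ± 0.521 in Low ×5, 47.2% ± 0.380 in High Control, 47.5% ± 0.239 in High ×2.5 and 46.9% ± 0.313 in High ×5. High minus Low was 0.0587 points (exact permutation test, two-sided, p = 0.820), ×2.5 minus Control was 0.347 points (exact p = 0.305) and ×5 minus Control was 0.0199 points (exact p = 0.910). The glucose effect at ×5 minus that at Control was -0.716 points (exact p = 0.225). After centring each library on its median M-value this interaction turned to 2.81 points (exact p = 0.0450, not adjusted). Over these 4 tests the Benjamini-Hochberg adjusted exact p-values were 0.610 to 0.910.

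The gap between isolated and dense CpGs also did not pass the test for any treatment effect. High minus Low was 0.317 points (exact permutation p = 0.441), ×2.5 minus Control -0.0801 points (exact p = 0.925) and ×5 minus Control -0.171 points (exact p = 0.860). For the interaction of glucose with ×5 the gap differed by 1.53 points (exact permutation p = 0.0950, adjusted over the 4 tests 0.380). In Low Control the gap was -23.8, -22.9 and -20.9 points in the 3 libraries, and in Low ×5 it was -23.5, -23.9 and -23.1 points. In High Control it was -23.2 points in all 3 libraries, and in High ×5 it was -22.7, -22.2 and -23.0 points. The third Low Control library thus had the smallest gap of all 18, and without replicate 3 of every treatment the interaction was 1.07 points (exact p = 0.222). It was 2.17 points without replicate 1 (exact p = 0.0556) and 1.34 points without replicate 2 (exact p = 0.500). With 1 replicate left out, this exact test cannot give a p-value under 0.0556, so the interaction could not have passed in these 3 settings. The interaction passed the unadjusted threshold with a limit of 50 bp (1.80 points, exact permutation p = 0.0450), with a limit of 200 bp (2.09 points, exact p = 0.0400) and without the position 0 CpGs (1.60 points, exact p = 0.0450).

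Differences at single CpGs were tested in the 10 contrasts of the study with limma on all 31500 CpGs, with the threshold of the study, an unadjusted p-value under 0.01, as the limit for a call. The contrasts share libraries and are not independent of each other. In what follows, methylated means that the first treatment of a contrast is higher, and demethylated that it is lower. Over the 10 contrasts, 22 of 2040 tests of isolated CpGs were called (1.08%), with 6 methylated and 16 demethylated, against 1.45% of the tests of dense CpGs and 1.49% of all tests. The directions over all tested CpGs differed between contrasts and are given with each contrast. The calls fell on 12 isolated CpGs (5.88%), while 9.45% of dense CpGs and 9.68% of all CpGs were called in at least 1 contrast. No isolated CpG had a Benjamini-Hochberg adjusted p-value under 0.05 with limma (lowest 0.300). In a contrast, 9 to 16 of 204 isolated CpGs had an unadjusted limma p-value under 0.05, against 754 to 2700 of all 31500 tested CpGs.

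For High ×5 vs. High Control, 3 isolated CpGs were called, all demethylated, while of all tested CpGs 92 were called methylated and 339 demethylated. In this contrast, 1.37% of all tested CpGs and 1.47% of the isolated were called. High ×2.5 vs. High Control called 1 (background 1.02%) and High ×5 vs. High ×2.5 called 1 (background 1.47%), both demethylated. Of all tested CpGs, 108 were methylated and 213 demethylated in the former, and 143 and 320 in the latter. In the Low treatments, Low ×5 vs. Low Control called 3 (background 2.40%), Low ×2.5 vs. Low Control called 2 (background 2.0%) and Low ×5 vs. Low ×2.5 called 2 (background 0.371%). In this order, the isolated calls were 1 methylated and 2 demethylated, 2 demethylated, and 1 of each. Of all tested CpGs, 562 were methylated and 195 demethylated, 481 and 148, and 72 and 45. Between glucose levels, High ×5 vs. Low ×5 called 5 (background 1.61%), of which 2 were methylated and 3 demethylated. Of all tested CpGs, 96 were methylated and 410 demethylated there. High ×2.5 vs. Low ×2.5 called 2 (background 1.01%), both methylated, High Control vs. Low Control called 1 (background 1.92%) and High ×5 vs. Low Control called 2 (background 1.75%), these 3 demethylated. In the order of these contrasts, 97 of all tested CpGs were methylated and 220 demethylated, 435 and 171, and 296 and 256. The F-test of any difference among the 6 treatments called 4 isolated CpGs (1.96%, background 1.44%). Each of these shares rests on 1 to 5 isolated CpGs.

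**Figure D5:**
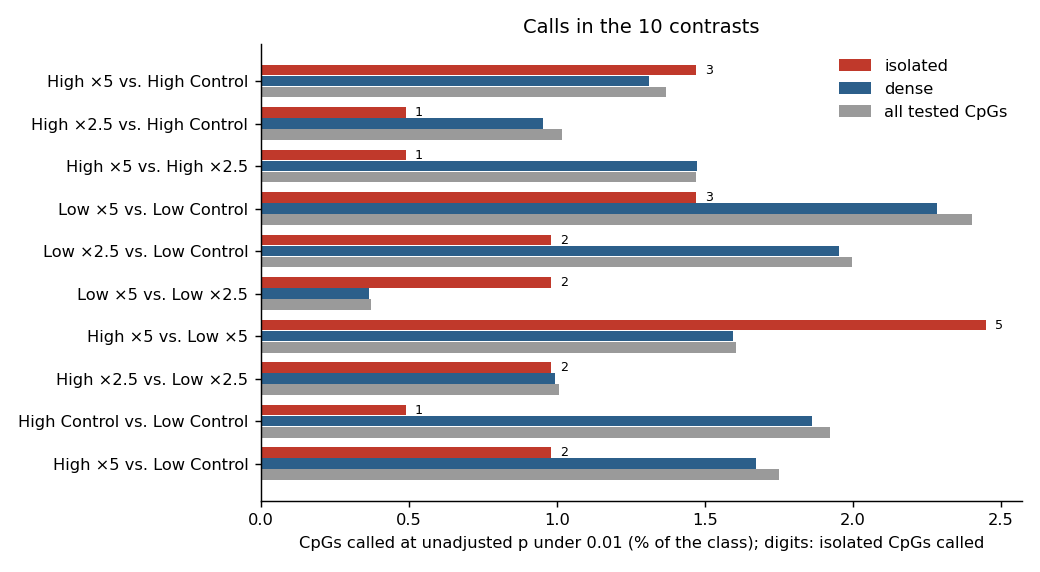
Share of isolated (red), dense (blue) and all tested CpGs (grey) called at an unadjusted p-value under 0.01 in each contrast, with the number of isolated CpGs called in digits. The isolated share runs from 0.490% (1 CpG) to 2.45% (5 CpGs), and a single CpG moves it by 0.490 percentage points.

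The median difference between treatments lay closer to 0 for isolated CpGs than for the whole table in the contrasts where the table moved most. The median log2 difference of all tested CpGs was 0.10 for Low ×5 vs. Low Control and -0.10 for High ×5 vs. Low ×5, and that of isolated CpGs was -0.00397 and -0.0155. Over the 10 contrasts, the median ran from -0.10 to 0.10 for all CpGs and from -0.05 to 0.06 for isolated CpGs. The median size of the difference without its sign was similar, at 0.18 to 0.25 for isolated and 0.18 to 0.25 for dense CpGs. After centring each library on its median M-value the order turned, and the median ran from -0.06 to 0.04 for all CpGs and from -0.16 to 0.12 for isolated CpGs. No test of the difference between the classes was run.

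The isolated CpG called most often, in 4 contrasts, was at position 40139573 of chromosome 28, given to RGR, a retinal opsin. Its level was 91.1%, 93.3% and 92.0% in Low ×5 and 80.4%, 75.7% and 86.8% in High ×5. The log2 difference, High ×5 minus Low ×5, was -1.42 (SE 0.27, limma adjusted p = 0.300). In Low ×2.5 its level was 85.5%, 86.0% and 87.9%, all below Low ×5, with a log2 difference of 0.88 for Low ×5 minus Low ×2.5 (SE 0.27, limma adjusted p = 1.00). It was also called methylated in Low ×5 vs. Low Control and demethylated in High ×5 vs. High Control, and had the smallest F-test p-value of the isolated CpGs (limma adjusted p = 0.630). Low ×5 was thus the highest and High ×5 the lowest of the 6 treatments at this CpG.

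At position 19033216 of chromosome 25 the level was 35.3%, 37.3% and 35.6% in Low ×2.5 and 53.3%, 52.2% and 65.0% in Low Control. The log2 difference was -1.23 (SE 0.29, limma adjusted p = 0.436). High ×5, at 33.3%, 42.1% and 47.9%, was also below Low Control, by -0.93 on the log2 scale (SE 0.29, limma adjusted p = 0.521). The adjusted p-value of its F-test was 0.660 (limma). This CpG is at position 0 of the recurring spacing, and the gene given to it is SET, which RefSeq places on another chromosome.

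The CpG at position 12133291 of chromosome 7, given to NDUFB7, a subunit of mitochondrial complex I, was low in all treatments. Its level was 2.78%, 3.33% and 2.90% in High Control and 9.43%, 18.8% and 13.3% in Low Control. The log2 difference was -2.32 (SE 0.50, limma adjusted p = 0.367). The means of the other treatments lay between, from 4.89% ± 2.74 in Low ×5 to 6.91% ± 3.08 in High ×5. The adjusted p-value of its F-test was 0.660 (limma).

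The CpG at position 61278356 of chromosome 8, with no gene given and the nearest tested CpG 2117 bp away, was called in 3 contrasts. It was at 16.1%, 26.5% and 19.1% in High ×5 and 28.9%, 35.2% and 36.2% in High Control (log2 difference -0.98, SE 0.29, limma adjusted p = 0.622). The adjusted p-value of its F-test was 0.660 (limma). Low ×5, at 22.7% ± 4.34 (SD, n = 3), was near High ×5, and the other 4 treatments had means of 28.6% to 35.4%. Both ×5 treatments thus had the lowest means at this CpG.

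The groups overlapped at position 92088205 of chromosome 10, which led Low ×5 vs. Low Control. Its level was 4.64%, 1.39% and 1.65% in Low ×5 and 6.06%, 4.55% and 15.0% in Low Control, so that the log2 difference was -1.85 (SE 0.47, limma adjusted p = 0.334). Replicate 3 of Low Control stood above all other libraries, and the call was lost without replicate 3 of every treatment. Its F-test had the fifth smallest p-value among isolated CpGs (limma adjusted p = 0.696) and was not a call.

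The remaining contrasts were led by other CpGs. For High ×2.5 vs. Low ×2.5 this was position 1891641 of chromosome 21, given to UBE3A, a ubiquitin ligase, at 40.6%, 45.2% and 41.7% against 35.3%, 25.6% and 23.9% (log2 difference 0.92, SE 0.23, limma adjusted p = 0.945). For High ×5 vs. High ×2.5 it was position 65201249 of chromosome 12, given to the microRNA gene MIR17, at 10.5%, 28.6% and 17.8% against 31.4%, 41.7% and 30% (log2 difference -1.26, SE 0.38, limma adjusted p = 0.643). For High ×2.5 vs. High Control it was position 71060055 of chromosome 15, given to MSANTD3, a gene that RefSeq places on another chromosome. Its level was 2.66%, 4.21% and 2.86% against 6.33%, 9.02% and 4.91% (log2 difference -1.10, SE 0.31, limma adjusted p = 0.949). Leading CpGs were picked by their p-values, which favours groups without overlap. The separation of the groups at these CpGs is therefore no added support.

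Many of these calls were lost in refits that left libraries out. Such refits rest on fewer libraries, so a call can be lost without 1 replicate driving it. Of the 10 leading calls, 5 were lost without replicate 1 of every treatment, 4 without replicate 2, 6 without replicate 3 and 4 when the other libraries were left out of the fit. With centred libraries 1 was lost, that of position 61278356 of chromosome 8. In these refits all kept their direction. The calls at RGR in High ×5 vs. Low ×5 and at NDUFB7 in High Control vs. Low Control held in every fit of those CpGs. Without replicate 1, the number of calls over the 10 contrasts was 36 in place of 22, which is 1.76% in place of 1.08% of the tests of isolated CpGs, while the share over all tested CpGs was 1.92% in place of 1.49%. In Low ×2.5 vs. Low Control 9 isolated CpGs (4.41%) were called in this fit, against 3.63% of all tested CpGs.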

How the data were processed

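RRBS libraries were prepared by the authors from DNA of frozen cell pellets, 3 tubes per treatment. The labels list total RNA as the molecule, while the protocols describe DNA. Per the submitters' processing notes, reads were handled with FastQC 0.11.8, MultiQC 1.9, cutadapt and Bismark 0.22.3 on bosTau8. Per the study's methods, cytosines in a CpG context were kept and filtered on coverage. The authors deposited 1 table of log2 values, the M-values of 31500 CpGs in 18 libraries. The offset added to the reads is not given in the sources used here. An offset draws values toward 0, more so at low depth, which is unknown.

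Neighbours were counted from the deposited positions of bosTau8. The level is the share that the M-value implies, offset included. limma 3.58.1 in R 4.3.3 was fitted to all 18 libraries with 1 mean per treatment (4.11 prior degrees of freedom), two-sided, with Benjamini-Hochberg adjustment over 31500 CpGs. The study used edgeR on reads, which M-values do not allow. The methods list Low ×5 vs. Low Control 2 times, and the second was read as Low ×5 vs. Low ×2.5. Sign-flip tests drew 100000 resamples over libraries. Treatment effects on library means were tested by exact permutation within the other factor. The limma script was checked on a simulation with known changes. Python 3.11.15, numpy 2.4.6, pandas 2.3.3, scipy 1.17.1 and matplotlib 3.10.9 were used.

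The text names, among isolated CpGs, the smallest p-value of each contrast, the 5 smallest of the F-test, the 3 highest and 3 lowest mean M-values and the 3 largest and 3 smallest replicate SDs, plus genes and pairs of CpGs chosen after their values were seen. The members and lists were chosen with earlier results of these data known. Gene names come from the study's tables, for the CpG itself or for listed CpGs on both sides. The tables' fold changes and p-values were not used. Alternatives, given in the closing section, were other limits of isolation, merged strands, centring, left-out replicates, a replicate block and fits of 6 libraries. The limits of 50 bp and 200 bp count dense CpGs within the same distance.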

Additional observations from a re-analysis of the deposited data

How the results depend on the processing

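The differences in mean level between isolated and dense CpGs and between isolated CpGs and their flank kept their direction and passed the test under all alternatives, at -24.1 to -19.8 and -17.7 to -8.52 points. The setting without the position 0 CpGs was chosen after seeing the data. The difference in replicate spread over all levels (log2) was 0.00909 with centred libraries (p = 0.0287), 0.0130 with a limit of 50 bp (p = 0.00016), 0.0129 against 10 or more neighbours, -0.0131 at 200 bp and -9.75e-05 with both strands counted as 1 CpG (sign-flip permutation tests). These p-values may be too small, as deviations within a treatment are not independent. Within level bands the difference was 0.000774 at 200 bp and 0.0170 without the position 0 CpGs. The cause was not tested.

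None of the treatment effects on mean level or on the gap passed the test as reported. On the isolated mean level, centring each library gave -0.357 points for ×2.5, -0.479 for ×5 and 2.81 for the interaction (exact permutation p = 0.0450). A limit of 50 bp gave -0.0411 for High minus Low and -0.0182 for ×5, both strands as 1 CpG gave -0.0111 for ×5, and without the position 0 CpGs the values were -0.0764 for High minus Low and -0.213 for ×5. On the gap, ×2.5 minus Control was 0.159 at 200 bp. The interaction was 1.80 at 50 bp, 2.09 at 200 bp and 1.60 without the position 0 CpGs (exact permutation p = 0.0450, 0.0400 and 0.0450, not adjusted).

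The shares of isolated CpGs called rest on few CpGs and moved freely. Over the 10 contrasts, the share of tests called was, for isolated and for all tested CpGs, 1.08% and 1.49% as reported, 1.03% and 1.19% with only the 6 libraries of a contrast, 1.23% and 1.44% with centring, 0.829% and 1.37% at mean levels from 10% to 90%, and 1.76% and 1.92%, 0.931% and 0.997%, and 1.18% and 1.30% without replicates 1, 2 and 3. With only the 6 libraries of a contrast fitted the isolated shares were 0.490% for High ×5 vs. High Control and vs. Low Control, 0% vs. High ×2.5, 0.980% vs. Low ×5 and for High Control vs. Low Control, 1.96% for Low ×5 vs. Low ×2.5 and 2.45% for High ×2.5 vs. Low ×2.5. In the same order, the shares over all tested CpGs were 1.28%, 0.625%, 0.810%, 2.03%, 1.17%, 0.873% and 1.03%. Centring gave 2.94% for Low ×2.5 vs. Low Control (all tested CpGs, 1.82%) and 0.980% for High Control vs. Low Control (all, 1.83%). A limit of 50 bp (609 CpGs) gave 1.15% for High ×5 vs. Low ×5 and for High ×2.5 vs. High Control, 1.31% for High Control vs. Low Control and for High ×5 vs. High ×2.5, 1.48% for Low ×2.5 vs. Low Control, and 0.493% for the contrasts of Low ×5 and of High ×2.5 with Low ×2.5. A limit of 200 bp (71 CpGs) gave 1.41% for the contrasts of High ×2.5 with High Control and of High ×5 with High ×2.5, and 0% for High ×5 vs. Low ×5 and the 3 contrasts of Low ×5, Low ×2.5 and High Control with Low Control. Mean levels from 10% to 90% gave 0% for High Control vs. Low Control and for High ×2.5 vs. High Control, 0.518% for Low ×5 vs. Low Control and 1.55% for High ×5 vs. Low ×5. Over all tested CpGs of these levels the shares were 1.69%, 0.987%, 1.87% and 1.30%, in the same order. Without the position 0 CpGs, Low ×2.5 vs. Low Control had 0%. Other limits and this setting change only the members, so the shares over all tested CpGs stay as reported.

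Leaving out 1 replicate number at a time gave -0.00439 to 0.0141 for the spread, 0.0145 to 0.0296 for the spread within level bands, -0.0503 to 0.746 and -0.0525 to 0.157 points for ×2.5 and ×5 on the mean level, and -0.400 to 0.369 and -0.467 to 0.227 points for ×2.5 and ×5 on the gap. Shares called ran from 0.980% to 2.45% for High ×5 vs. High Control, 0% to 0.980% for High ×2.5 vs. High Control, 0% to 1.47% for High ×5 vs. High ×2.5, 0.490% to 2.45% for Low ×5 vs. Low Control, 0% to 4.41% for Low ×2.5 vs. Low Control, 0% to 0.490% for Low ×5 vs. Low ×2.5, 0.980% to 2.94% for High ×5 vs. Low ×5, 0.490% to 2.45% for High ×2.5 vs. Low ×2.5, 0.490% to 1.96% for High Control and for High ×5 vs. Low Control, and 0.490% to 0.980% for the F-test. No isolated CpG had an adjusted p-value under 0.05 in any setting (limma, edgeR was not run).

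The replicate numbers did not pair the libraries, since deviations from the treatment means correlated at -0.106 to 0.115 for libraries of the same number (1 of 45 pairs over 0.1). With a replicate block, 24 in place of 22 tests of isolated CpGs were called (1.18%), against 1.52% of all tests. High ×5 vs. High ×2.5 had 1.47% of isolated and 1.47% of all tested CpGs, and no other result moved past these limits. With the block, the exact permutation tests of the interaction cannot give a p-value under 0.25, so they could not have passed.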
